A study of Homo sapiens with 18 samples.

Results

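Fibroblast growth factor (FGF) signalling was followed through 10 genes in cells and early cerebral organoids of the genotypes LIS1+/+ and LIS1+/-. The genes are the ligands FGF2 and FGF8, the receptors FGFR1, FGFR2 and FGFR3, the feedback inhibitors SPRY1, SPRY2 and SPRY4, and the ETS transcription factors ETV4 and ETV5. They were taken by symbol, and each of the 10 had a row among the 26485 gene rows of the count tables. FGF ligands bind receptor tyrosine kinases together with heparan sulphate, and the active receptor passes the signal through adaptors to RAS and the MAP kinases. Genes of the Sprouty (SPRY), DUSP and ETV4/ETV5 families are switched on by this pathway in many tissues, so their transcripts are often read as its output, while Sprouty and DUSP proteins in turn dampen it. Human pluripotent cells are kept in FGF2, and in the embryo FGF8 from the anterior edge of the neural plate and from the border of midbrain and hindbrain patterns the brain.

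The cells were WIBR3, an established human embryonic stem cell (hESC) line, with the genotype LIS1+/+ or LIS1+/-, and RNA was taken from the stem cells and from organoids at Day 5 and Day 12. The LIS1 protein, encoded by PAFAH1B1, acts with the motor dynein, and heterozygous loss of the gene underlies lissencephaly, a smooth brain surface. Each of the 6 groups had 3 libraries, 18 in all, made by bulk MARS-seq, a method that reads short tags from the 3′ end of each RNA. The altered part of LIS1 and the number of clones are not given in the sources used here. A difference between genotypes therefore cannot be told apart from one between clones. Each stage has a pool number of its own, and stage and pool cannot be told apart. Nothing in the labels says that libraries of a group came from separate cultures, and the p-values therefore rest on the spread among libraries, which may be technical.

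Each library held between 1425098 and 4501489 counts over genes. PAFAH1B1 was lower in every LIS1+/- library than in every LIS1+/+ library of its stage. In hESC it stood at 56.2 ± 4.93 against 89.3 ± 19.9 CPM (mean ± SD, n = 3). CPM is a gene's count divided by the library's effective size and scaled to 1e+06. The effective size is the library's total over genes times its TMM factor. The fitted log2 difference of PAFAH1B1 lay between -0.78 and -0.58 over the 3 stages. By the edgeR quasi-likelihood test it passed at Day 12 (adjusted p = 0.0372). It did not pass in hESC (adjusted p = 0.173) or at Day 5 (adjusted p = 0.148). A genotype difference of this size in another gene can therefore also be missed by the test. Summed pluripotency markers fell in range from 4700 to 4946 CPM in hESC LIS1+/+ to 114 to 157 CPM at Day 12, although ZFP42, one of the 7, had no count in any hESC library. Telencephalon markers summed to 31.9 to 42.2 CPM in hESC LIS1+/+ and to 1732 to 2308 CPM at Day 12. At Day 5 the pluripotency sum was 856 to 944 CPM in LIS1+/+ and 446 to 581 CPM in LIS1+/-, and the telencephalon sum 672 to 730 and 1136 to 1193 CPM. At Day 12 the mesenchyme sum was 148 to 967 CPM in LIS1+/+ and 89.6 to 122 CPM in LIS1+/-, and the neural crest sum 121 to 411 and 39.6 to 54.9 CPM. In bulk RNA, fewer cells of a type and less RNA per cell cannot be told apart. In 3 groups 1 library was taken to stand apart from its 2 partners. These were replicate 3 of the LIS1+/+ stem cells, replicate 2 of LIS1+/- at Day 5 and replicate 2 of LIS1+/+ at Day 12. The plainest case was Day 5 LIS1+/- replicate 2, whose counts differed from the other 2 by a chi-square of 16.0 and 14.9 per degree of freedom, against 5.87 between those 2. Day 12 LIS1+/+ replicate 2 differed by 9.46 and 10.6, against 6.59. For hESC LIS1+/+ replicate 3 it was 7.08 and 5.68, against 3.58. The 3 were picked from these same data. Leaving out deviant libraries narrows the spread, so adjusted p-values without them may be too small.

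**Figure D1:**
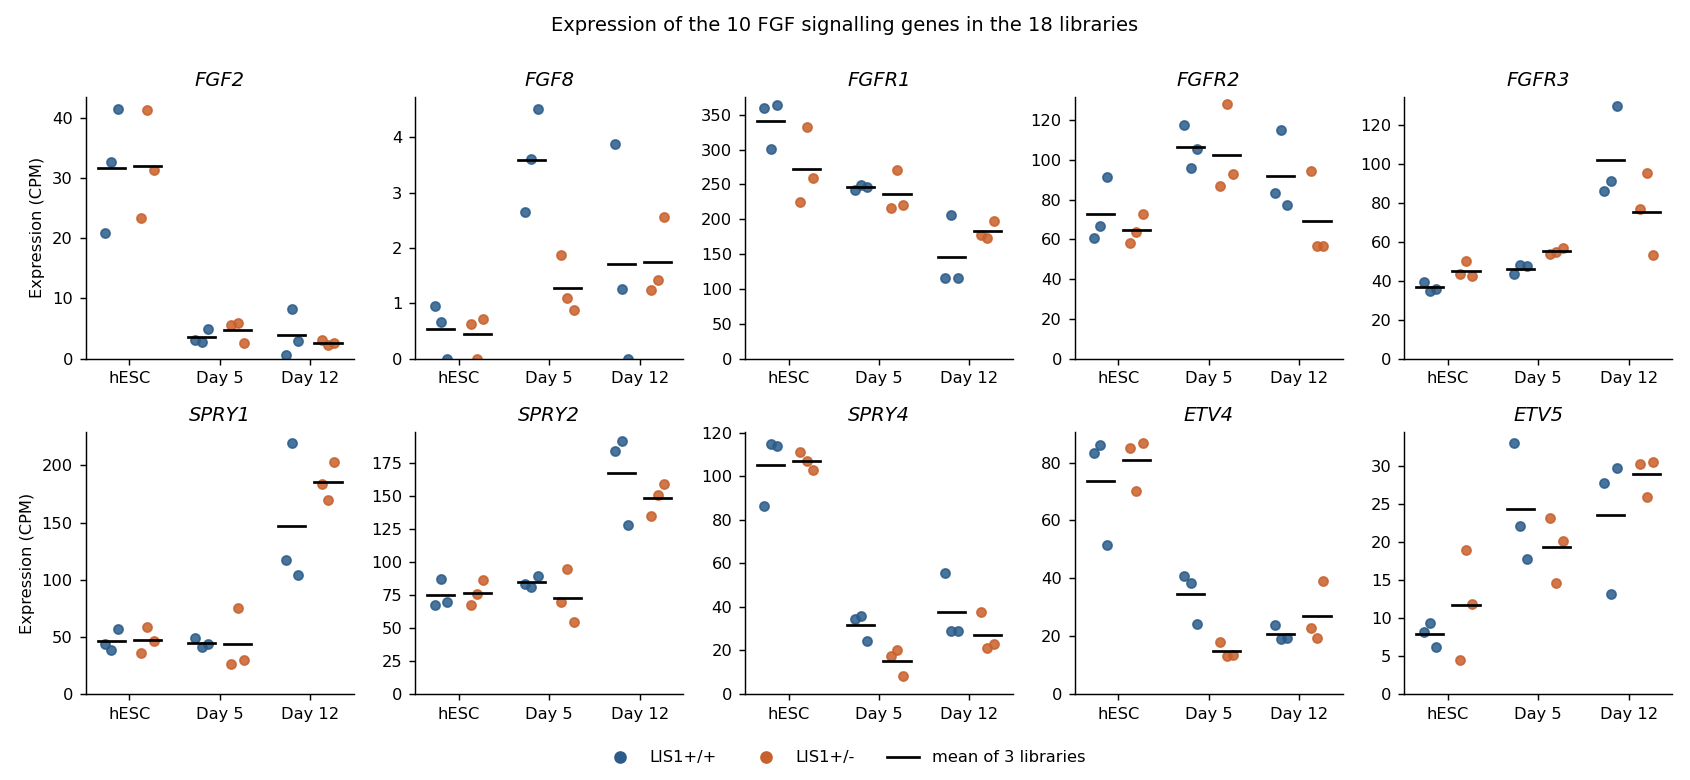
Expression in CPM (vertical axes, linear, starting at 0) of the 10 genes in each of the 18 libraries by stage; 1 point is 1 library, blue LIS1+/+ and orange LIS1+/-, and bars are means of 3 libraries. FGF2, SPRY4 and ETV4 are highest in hESC, SPRY1 and SPRY2 at Day 12, and at Day 5 the LIS1+/- libraries lie below the LIS1+/+ libraries for FGF8, SPRY4 and ETV4.

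The members changed with stage in opposite directions within families. Between hESC and Day 5 of LIS1+/+, 6 of the 9 genes that passed the filter on low counts changed, 2 up and 4 down, where 44.6% of all 12215 tested genes changed (edgeR quasi-likelihood test with Benjamini-Hochberg adjustment, threshold 0.05). In LIS1+/- it was 4 of 9, 1 up and 3 down, beside 43.7% of all genes. Over that step 22.9% of genes rose and 21.7% fell in LIS1+/+, and 22.4% rose and 21.4% fell in LIS1+/-. Between Day 5 and Day 12, 3 members rose and 1 fell in LIS1+/+, where 24.5% of all genes changed (12.7% up, 11.7% down), and 3 rose and none fell in LIS1+/-, where 16.5% changed (8.9% up, 7.64% down). Over the whole span from hESC to Day 12, 8 of 9 changed in each genotype, 4 up and 4 down, beside 53.1% of genes in LIS1+/+ (28.1% up, 25% down) and 52.1% in LIS1+/- (26.7% up, 25.4% down). These were the same 8 genes in the same directions: FGFR3, SPRY1, SPRY2 and ETV5 rose, and FGF2, FGFR1, SPRY4 and ETV4 fell. The median of the 9 log2 changes over that span was 0.34 in LIS1+/+ against 0.09 over all tested genes, and 0.07 against 0.04 in LIS1+/-. Without the 3 libraries that stood apart, the same 8 genes changed in the same directions in both genotypes. FGF8 did not pass the filter and is given by its counts.

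**Figure D2:**
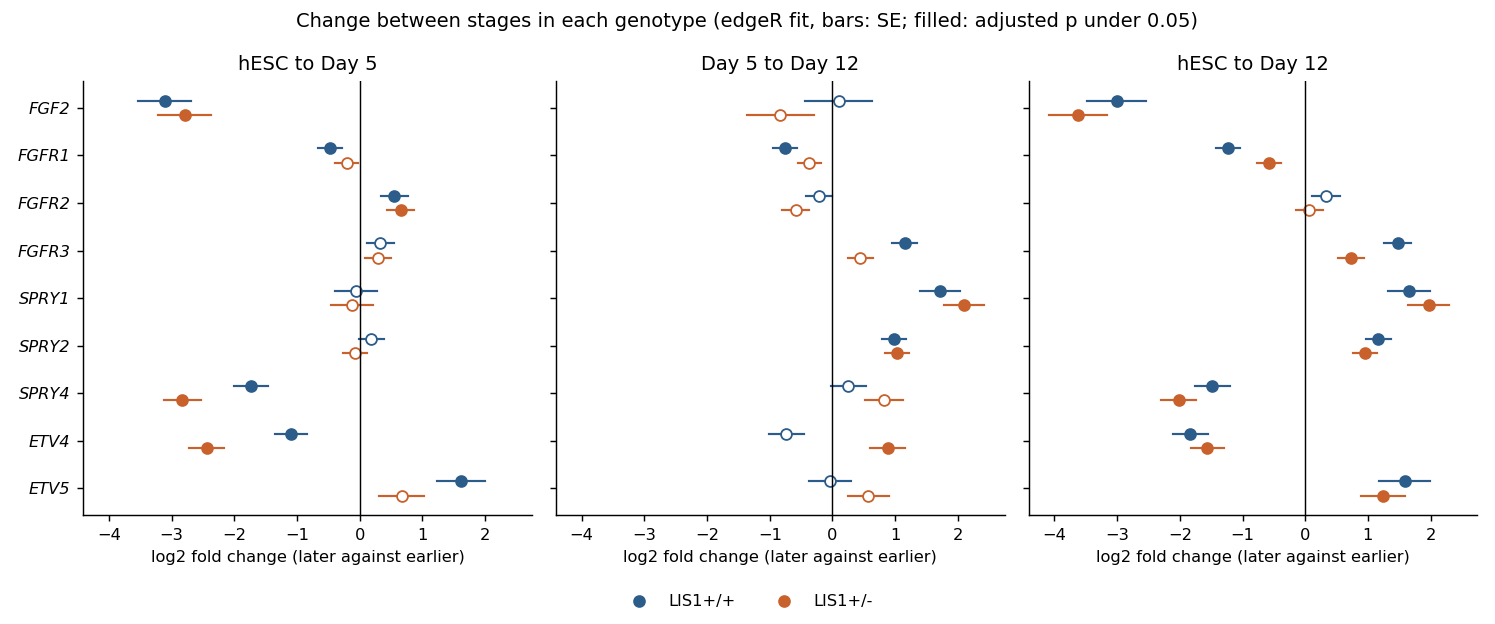
Log2 fold change between stages (horizontal axis, later against earlier stage) of the 9 tested members in LIS1+/+ (blue) and LIS1+/- (orange), from the edgeR fit; bars are SE and filled points passed an adjusted p of 0.05. FGF2, SPRY4 and ETV4 fell from hESC to Day 5 in both genotypes, and SPRY1 and SPRY2 rose from Day 5 to Day 12 in both.

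FGF2, the ligand that supports self-renewal of human stem cells in culture, was highest at the stem cell stage. In hESC it stood at 21.0, 32.7 and 41.6 CPM in LIS1+/+ and at 23.4, 41.5 and 31.4 CPM in LIS1+/-. At Day 5 the values were 3.14, 2.70 and 4.96 CPM in LIS1+/+ and 5.61, 5.85 and 2.63 CPM in LIS1+/-. Every organoid library was thus below every hESC library, and the genotypes overlapped at each stage. From hESC to Day 5 FGF2 fell 8.65-fold in LIS1+/+ (95% interval 4.76 to 15.7, adjusted p = 1.08e-06) and 6.94-fold in LIS1+/- (3.81 to 12.6, adjusted p = 5.52e-06). Day 12 held 0.646, 8.18 and 2.92 CPM in LIS1+/+ and 3.09, 2.28 and 2.56 CPM in LIS1+/-. The highest of these was the library that stood apart, and the step from Day 5 to Day 12 did not pass in either genotype (log2 0.10 ± 0.53 SE and -0.83 ± 0.53, adjusted p = 0.909 and 0.304). FGF2 lies at chr4:122826708-122898236 on the plus strand (GRCh38, GENCODE release 29), and 804 of its exonic bases are shared with NUDT6, a gene on the opposite strand. NUDT6 rose from hESC to Day 5 while FGF2 fell, from 4.55 ± 1.78 to 19.0 ± 1.88 CPM in LIS1+/+ (log2 2.04 ± 0.37, adjusted p = 7.09e-05) and from 5.08 ± 2.68 to 23.2 ± 6.38 CPM in LIS1+/-. Use of the strand in counting is a point not given in the sources used here, and without it the reads of overlapping genes cannot be told apart.

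FGF8, a patterning ligand of the early brain, was near the limit of detection. The pooled counts of the 3 libraries were 3 in each hESC group, 47 in Day 5 LIS1+/+, 11 in Day 5 LIS1+/-, 8 in Day 12 LIS1+/+ and 16 in Day 12 LIS1+/-. At Day 5 the LIS1+/+ libraries held 2.65, 3.61 and 4.51 CPM and the LIS1+/- libraries 1.87, 1.10 and 0.878 CPM. All 3 LIS1+/+ libraries were above all 3 LIS1+/- libraries at this stage, while at Day 12 the groups overlapped (3.88, 1.26 and 0 CPM against 1.24, 1.42 and 2.56 CPM). From hESC to Day 5 of LIS1+/+ the level was 6.27-fold higher by pooled counts, with an interval of 2.02 to 31.5 that covers counting error only. Its log2 ratio, 2.65, ran from 2.11 to 3.49 with 1 library left out, highest without hESC LIS1+/+ replicate 1. With no filter on low counts, edgeR gave this step a log2 change of 2.59 ± 1.00 (adjusted p = 0.0331). In LIS1+/- the same step was 2.73-fold by pooled counts, with an interval of 0.721 to 15.2. Its log2 ratio, 1.45, ran from 0.86 without hESC LIS1+/- replicate 2 to 2.24 without hESC LIS1+/- replicate 3. FGF8 lies at chr10:101770130-101780369 on the minus strand (GRCh38, GENCODE release 29).

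The receptors moved in different directions. FGFR1, a main FGF receptor of stem cells and neural progenitors, went down. It measured 360, 301 and 364 CPM in hESC LIS1+/+, 242, 249 and 247 CPM at Day 5 and 115, 206 and 116 CPM at Day 12. Every LIS1+/+ library was below every library of the stage before it. The fall was 1.39-fold to Day 5 (interval 1.07 to 1.81, adjusted p = 0.0389) and 1.69-fold from Day 5 to Day 12 (1.29 to 2.22, adjusted p = 0.00437). The first of these steps lost its call when any of 5 of the 6 libraries compared was left out, with an adjusted p of up to 0.111. In LIS1+/- the values were 225, 333 and 259 CPM in hESC, 216, 271 and 221 CPM at Day 5 and 178, 172 and 197 CPM at Day 12. Here hESC and Day 5 overlapped, neither step passed (log2 -0.21 ± 0.19 and -0.37 ± 0.19, adjusted p = 0.380 and 0.182), and the whole span did (log2 -0.58 ± 0.19, adjusted p = 0.0115). That span lost its call without hESC LIS1+/- replicate 2, the highest hESC library (log2 -0.41, adjusted p = 0.10). FGFR1 shares 138 exonic bases with LETM2 on the opposite strand, and LETM2 was at 1.40 ± 1.43 CPM in hESC LIS1+/+ and 6.41 ± 0.542 CPM at Day 12.

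FGFR2, a receptor of epithelia and early neuroepithelium, was higher at Day 5 than in hESC and not beyond. The hESC libraries held 60.5, 66.8 and 91.2 CPM in LIS1+/+ and 58.1, 63.6 and 72.9 CPM in LIS1+/-. At Day 5 they held 117, 96.0 and 106 CPM and 86.7, 128 and 92.8 CPM, without overlap with hESC in either genotype. The rise passed with log2 0.55 ± 0.22 in LIS1+/+ (adjusted p = 0.0409) and 0.66 ± 0.22 in LIS1+/- (adjusted p = 0.0165). It rested on the choices made: with DESeq2 size factors the LIS1+/+ value was 0.52 (adjusted p = 0.0552), and without the 3 libraries that stood apart the LIS1+/- value was 0.46 (adjusted p = 0.0537). The FGFR2 call was also lost without any 1 of hESC LIS1+/+ replicates 1 and 2 and Day 5 LIS1+/+ replicates 1, 2 and 3 (adjusted p up to 0.173). In LIS1+/- it was lost without hESC replicate 1 or 2 or Day 5 replicate 2 (adjusted p up to 0.0988). At Day 12 FGFR2 stood at 83.4, 115 and 77.4 CPM in LIS1+/+ and 94.6, 56.9 and 56.4 CPM in LIS1+/-, and neither differed from hESC by the test (adjusted p = 0.210 and 0.817). The step from Day 5 was log2 -0.59 ± 0.22 in LIS1+/- (adjusted p = 0.0617), and without Day 12 LIS1+/- replicate 1, the highest of its group, FGFR2 fell by 0.86 (adjusted p = 0.0133).

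FGFR3, a receptor known in the ventricular zone of the caudal and lateral cortex, rose late. In LIS1+/+ it went from 39.5, 34.7 and 36.0 CPM in hESC and 43.4, 48.0 and 47.4 CPM at Day 5 to 85.9, 91.2 and 130 CPM at Day 12. In LIS1+/- it went from 43.6, 50.0 and 42.2 CPM through 53.8, 54.8 and 57.1 CPM to 76.7, 95.6 and 53.3 CPM. The last library lay below all 3 of its Day 5 partners, and the other 2 above them. From Day 5 to Day 12 FGFR3 rose 2.22-fold in LIS1+/+ (interval 1.67 to 2.95, adjusted p = 0.000149), and the LIS1+/- value was 1.36-fold (1.02 to 1.81), which did not pass (adjusted p = 0.133). Without that last library, Day 12 LIS1+/- replicate 3, the LIS1+/- step passed (log2 0.65, adjusted p = 0.0368). Without Day 12 LIS1+/- replicate 2, the highest of its group, the rise of FGFR3 over the whole span did not pass in LIS1+/- (log2 0.50, adjusted p = 0.0627). Whether the rise differed between genotypes was tested directly and did not pass (log2 difference -0.71 ± 0.28, adjusted p = 0.296).

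SPRY1 and SPRY2, intracellular inhibitors of receptor tyrosine kinase signalling, passed no test between hESC and Day 5 and rose from Day 5 to Day 12. Because these 2 genes rose together, the 250 bases before their first annotated start are shown, from RefSeq on GRCh38.p14. They were searched on both strands for CCGGAA, a core to which ETS factors such as ETV4 and ETV5 bind, and a match is in capitals. SPRY1 is shown at chr4:123396545-123396794 on the plus strand, and SPRY2 at chr13:80341127-80341376 on the minus strand, both 5′ to 3′ in the direction of the gene.
SPRY1: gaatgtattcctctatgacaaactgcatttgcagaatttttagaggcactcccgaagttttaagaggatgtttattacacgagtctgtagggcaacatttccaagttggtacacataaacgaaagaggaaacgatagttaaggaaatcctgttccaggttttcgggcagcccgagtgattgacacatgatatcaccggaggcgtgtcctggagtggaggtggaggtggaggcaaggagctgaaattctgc
SPRY2: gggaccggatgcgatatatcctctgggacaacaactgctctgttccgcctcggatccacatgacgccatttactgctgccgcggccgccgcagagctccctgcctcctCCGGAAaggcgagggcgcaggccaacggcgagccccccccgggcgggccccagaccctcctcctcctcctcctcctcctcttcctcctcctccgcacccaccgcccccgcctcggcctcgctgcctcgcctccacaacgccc
The SPRY2 window holds CCGGAA 1 time, and these letters are not in the SPRY1 window shown. Of 35116 windows of the same length and position in the RefSeq table, 14.5% hold the motif on at least 1 strand, so the match is a description of the letters. GC content is 45.6% in the SPRY1 window and 70.4% in the SPRY2 window. Of the 10 genes, 6 have entries in that table, with 13 starts in all. The motif is in 2 of these windows, the SPRY2 window shown and that of a second SPRY1 start (chr4:123398136-123398385), which lies in an annotated exon and is not shown, so both genes have a start with the motif.

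SPRY1 measured 43.8, 38.1 and 57.1 CPM in hESC LIS1+/+, 49.0, 41.0 and 43.7 CPM at Day 5 and 118, 220 and 104 CPM at Day 12. In LIS1+/- it measured 36.0, 58.6 and 46.2 CPM, then 25.8, 74.9 and 29.6 CPM, then 184, 170 and 203 CPM. All Day 12 libraries lay above all earlier libraries. The rise from Day 5 to Day 12 was 3.29-fold in LIS1+/+ (interval 2.07 to 5.22, adjusted p = 0.000602) and 4.29-fold in LIS1+/- (2.68 to 6.84, adjusted p = 0.00012). The 220 and 74.9 CPM libraries are both among the 3 that stood apart. Without those 3, SPRY1 in LIS1+/- also fell from hESC to Day 5 (log2 -0.77, adjusted p = 0.00302), a step that with all libraries was -0.13 ± 0.33 (adjusted p = 0.784).

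SPRY2 repeated this course with less spread. LIS1+/+ held 67.1, 86.8 and 69.5 CPM in hESC, 83.0, 81.1 and 89.3 CPM at Day 5 and 184, 191 and 128 CPM at Day 12. LIS1+/- held 66.9, 75.7 and 86.2 CPM, then 69.5, 94.7 and 54.1 CPM, then 135, 150 and 159 CPM. Again every Day 12 library was above every earlier one. The rise from Day 5 was 1.98-fold in LIS1+/+ (interval 1.51 to 2.60, adjusted p = 0.000491) and 2.04-fold in LIS1+/- (1.55 to 2.69, adjusted p = 0.000407). Over the 18 libraries log2 CPM of SPRY1 and SPRY2 had a Pearson r of 0.91, a description across libraries that share stage and pool. For deviations from the group means it was 0.61.

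SPRY4, the third Sprouty gene, took the opposite course and was highest in the stem cells. In hESC it stood at 86.2, 115 and 114 CPM in LIS1+/+ and at 111, 107 and 103 CPM in LIS1+/-. At Day 5 LIS1+/+ held 34.5, 35.6 and 24.4 CPM and LIS1+/- 17.2, 20.1 and 8.19 CPM. The fall was 3.32-fold in LIS1+/+ (interval 2.26 to 4.88, adjusted p = 9.98e-06) and 7.13-fold in LIS1+/- (4.69 to 10.8, adjusted p = 1.59e-08). At Day 12 the values were 55.6, 28.9 and 28.7 CPM in LIS1+/+ and 37.7, 21.1 and 22.8 CPM in LIS1+/-. All 3 LIS1+/- libraries were then above all 3 of Day 5, by log2 0.82 ± 0.30, which did not pass (adjusted p = 0.0664). It did pass with DESeq2 (0.84, adjusted p = 0.0424), with no filter on low counts (0.81, adjusted p = 0.0189) and without the 3 libraries that stood apart (1.07, adjusted p = 0.0232). Over all 12 alternatives this step ranged from 0.49 to 1.07, with adjusted p from 0.0189 to 0.303. It passed in 5 of the 12, and in 1 of the 6 that left out 1 library. SPRY4-IT1, a noncoding RNA from an intron of SPRY4, stood at 7.44 ± 3.30 CPM in hESC LIS1+/+ and 12.5 ± 4.92 CPM in hESC LIS1+/-. It fell to Day 5 in LIS1+/- (log2 -1.63 ± 0.52, adjusted p = 0.0126) and was at 0.06 ± 0.51 over that step in LIS1+/+ (adjusted p = 0.939).

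ETV4 and ETV5 are close relatives, both ETS factors that FGF signalling induces, and over hESC to Day 12 they moved against each other. ETV4 stood at 83.3, 86.2 and 51.5 CPM in hESC LIS1+/+ and 85.2, 70.3 and 86.9 CPM in hESC LIS1+/-, with the lowest value in the library that stood apart. At Day 5 it stood at 40.8, 38.3 and 24.4 CPM in LIS1+/+ and 17.9, 13.2 and 13.5 CPM in LIS1+/-. This was a fall of 2.14-fold in LIS1+/+ (interval 1.5 to 3.06, adjusted p = 0.000895) and of 5.44-fold in LIS1+/- (3.69 to 8.03, adjusted p = 4.81e-08). At Day 12 the LIS1+/+ libraries held 23.9, 18.9 and 19.5 CPM, all below Day 5, and the LIS1+/- libraries 22.9, 19.3 and 39.0 CPM, all above Day 5. The LIS1+/+ step was log2 -0.73 ± 0.28 and did not pass (adjusted p = 0.0529), though it did without Day 5 LIS1+/+ replicate 3 (-0.94, adjusted p = 0.022). ETV4 rose 1.85-fold in LIS1+/- (interval 1.24 to 2.75, adjusted p = 0.029). That rise rests in part on 1 library: without Day 12 LIS1+/- replicate 3 it was log2 0.49 (adjusted p = 0.297). It also missed the threshold without Day 5 LIS1+/- replicate 2 or 3 (adjusted p = 0.0758 and 0.0958).

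ETV5 rose from hESC to Day 12 as ETV4 fell. It measured 8.09, 9.35 and 6.21 CPM in hESC LIS1+/+, 33.0, 22.1 and 17.8 CPM at Day 5 and 27.8, 13.2 and 29.7 CPM at Day 12. The first step was 3.07-fold (interval 1.78 to 5.31, adjusted p = 0.00125), and the second was flat (log2 -0.03 ± 0.33, adjusted p = 0.957). In LIS1+/- it measured 4.42, 18.9 and 11.9 CPM, then 23.2, 14.6 and 20.2 CPM, then 30.3, 25.9 and 30.5 CPM. Here hESC and Day 5 overlapped through hESC replicate 2, and that step was log2 0.67 ± 0.36 (adjusted p = 0.134), or 1.15 without that library (adjusted p = 0.0289). From Day 5 to Day 12 all 3 LIS1+/- libraries of ETV5 lay above Day 5, by log2 0.57 ± 0.33, which did not pass (adjusted p = 0.251). ETV4 rose over that step in LIS1+/- too. The whole span of ETV5 to Day 12 passed at log2 1.24 ± 0.35 (adjusted p = 0.00458). ETV5 shares 164 exonic bases with DGKG on the same strand, an overlap that use of the strand would not resolve. In LIS1+/+ DGKG was at 0 CPM in each hESC library and at 3.23, 1.89 and 1.95 CPM at Day 12. Over the 18 libraries SPRY4 and ETV4 had a Pearson r of 0.88 and ETV4 and ETV5 of -0.58, again as descriptions of libraries that share stage. For deviations from the group means, r was 0.20 for SPRY4 and ETV4 and 0.27 for ETV4 and ETV5.

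Between genotypes at 1 stage, a member passed only at Day 5, where ETV4 was lower in LIS1+/-. It was the only 1 of 9 members that passed, beside 1.95% of all tested genes (1.28% lower), and the median log2 difference of the 9 members was -0.06 against 0.0074 over all genes. Over all genes too, the share called was largest at Day 5, against 0.491% in hESC and 1.4% at Day 12. ETV4 was 2.32-fold lower (interval 1.58 to 3.41, log2 -1.22 ± 0.27, adjusted p = 0.0139), with all 3 LIS1+/- libraries at 13.2 to 17.9 CPM below all 3 LIS1+/+ libraries at 24.4 to 40.8 CPM. Without the 3 libraries that stood apart it was log2 -1.14 and passed (adjusted p = 0.0204). The call was lost without Day 5 LIS1+/+ replicate 1 (log2 -1.08, adjusted p = 0.084), LIS1+/+ replicate 2 (-1.14, adjusted p = 0.0668) or LIS1+/- replicate 3 (-1.15, adjusted p = 0.0823). ETV4 lies within DHX8, a helicase gene on the opposite strand with which it shares 68 exonic bases. DHX8 was at 79.1 ± 10.5 CPM in LIS1+/+ and 64.6 ± 12.8 CPM in LIS1+/- at Day 5, a log2 difference of -0.29 ± 0.20 (adjusted p = 0.655).

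SPRY4 pointed the same way at Day 5 and lay at the threshold. Its level was 31.5 ± 6.20 CPM in LIS1+/+ and 15.2 ± 6.21 CPM in LIS1+/-, with all 3 LIS1+/- libraries below all 3 LIS1+/+ libraries. The difference was log2 -1.07 ± 0.29, or 2.10-fold, and did not pass (adjusted p = 0.0532). It passed with DESeq2 (-1.06, adjusted p = 0.025), with no filter on low counts (-1.09, adjusted p = 0.00129) and without the 3 libraries that stood apart (-1.34, adjusted p = 0.0209). Over all 12 alternatives it ranged from -1.34 to -0.75, with adjusted p from 0.00129 to 0.281. FGF8, which has no value in the filtered fit, was 2.90-fold lower in LIS1+/- by pooled counts at Day 5, with a counting interval of 1.48 to 6.20. With no filter on low counts, edgeR gave FGF8 a log2 difference of -1.49 ± 0.80, which did not pass (adjusted p = 0.552). The other feedback genes passed no test: SPRY1 was at -0.04 ± 0.32, SPRY2 at -0.22 ± 0.19 and ETV5 at -0.33 ± 0.33 (adjusted p = 0.984, 0.745 and 0.793). The SPRY1 value turned on Day 5 LIS1+/- replicate 2, without which it was -0.68 (adjusted p = 0.290), and it was -0.68 without the 3 libraries that stood apart (adjusted p = 0.0642). The receptors lay between -0.06 and 0.26, none called. FGFR3 was higher in every LIS1+/- library than in every LIS1+/+ library both in hESC (log2 0.30 ± 0.22, adjusted p = 0.647) and at Day 5 (0.26 ± 0.20, adjusted p = 0.697). With 3 libraries a group, such separation can arise without a genotype difference. The share of all genes that separate in this way was not counted, here or for the other genes named. The Day 5 pluripotency marker sum was also lower in LIS1+/- and the telencephalon sum higher, as given above. The pluripotency sum was already lower in hESC, at 3500 to 3768 CPM in LIS1+/- against 4700 to 4946 CPM. The midbrain-hindbrain boundary sum overlapped at Day 5, at 337 to 457 CPM in LIS1+/- against 371 to 419 CPM. So did the neural progenitor sum (5475 to 6252 against 5094 to 6180 CPM), which in hESC was higher in LIS1+/- (7743 to 7938 against 5992 to 6133 CPM). The early neuron sum at Day 5 was higher in LIS1+/- without overlap (291 to 405 against 256 to 283 CPM). At Day 5 the sums for surface ectoderm (220 to 319 against 440 to 527 CPM), mesenchyme (23.4 to 29.8 against 52.6 to 66.5 CPM) and neural crest (56.8 to 85.2 against 100.3 to 119 CPM) were lower in LIS1+/- without overlap. In hESC LIS1+/+ these sums were higher still, at 2206 to 2258, 447 to 484 and 140 to 179 CPM. They therefore need not mark those cell types at Day 5. The part of these cell type markers in the differences of ETV4, SPRY4 and FGF8 was not tested.

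**Figure D3:**
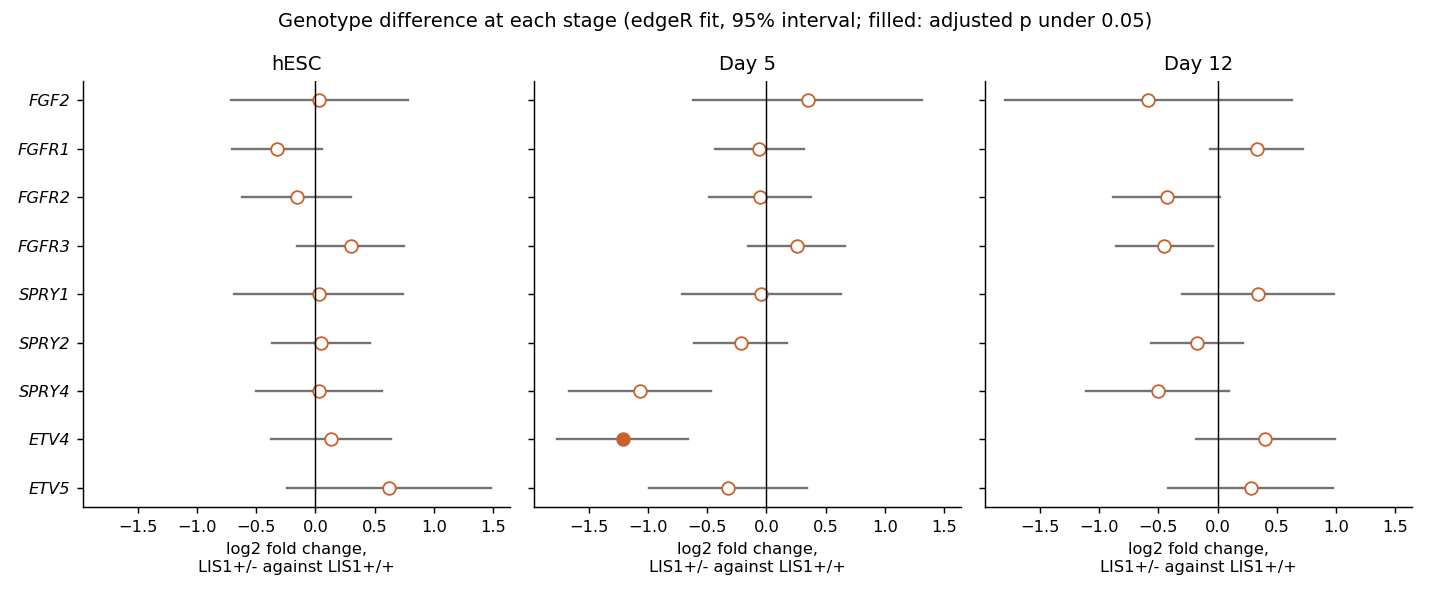
Log2 fold change of LIS1+/- against LIS1+/+ (horizontal axis) of the 9 tested members in hESC, at Day 5 and at Day 12, from the edgeR fit with 95% intervals; filled points passed an adjusted p of 0.05. ETV4 at Day 5 is the single filled point, at -1.22, with SPRY4 next to it at -1.07.

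In hESC none of the 9 members passed between genotypes (0.491% of all genes did), and PAFAH1B1 itself did not pass either. No member reached an unadjusted p under 0.05 in edgeR, and DESeq2 called 0. The log2 differences ran from -0.33 in FGFR1 to 0.62 in ETV5, with a median of 0.03, the same as over all genes. For SPRY4 and ETV4 the hESC differences were 0.03 ± 0.26 and 0.13 ± 0.25.

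At Day 12 again none of 9 passed, beside 1.4% of all genes. FGFR3 alone had an unadjusted p under 0.05 in edgeR (log2 -0.45 ± 0.20, adjusted p = 0.333), and DESeq2 called 0. The differences ran from -0.58 in FGF2 to 0.40 in ETV4, with a median of -0.17 against -0.0070 over all genes. This picture turned in part on the library that stood apart at this stage, Day 12 LIS1+/+ replicate 2, which held the highest LIS1+/+ values of FGFR1 (206 CPM), SPRY1 (220 CPM) and FGF2 (8.18 CPM). The FGF2 difference, at -0.58 ± 0.59, was 0.41 without that library (adjusted p = 0.902). Without the 3 libraries that stood apart, FGFR1 was higher in LIS1+/- by log2 0.66 (adjusted p = 0.0168) and SPRY1 by 0.75 (adjusted p = 0.0152). With all libraries the values were 0.33 ± 0.19 and 0.34 ± 0.31 (adjusted p = 0.477 and 0.685). Without Day 12 LIS1+/+ replicate 2 alone FGFR1 passed (log2 0.66, adjusted p = 0.0435). SPRY1 did not pass with any 1 library left out. The mesenchyme and neural crest marker sums of Day 12 LIS1+/+ spanned 148 to 967 and 121 to 411 CPM, and their part in these values was not tested.

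The genotype difference of ETV4 itself changed between stages. From Day 5 to Day 12 it moved by log2 1.62 ± 0.39 (adjusted p = 0.0371), from -1.22 at Day 5 to 0.40 ± 0.29 at Day 12, and ETV4 was the only 1 of 9 members to pass, beside 1.06% of all genes (0.385% in that direction). Its adjusted p ranged from 0.00128 to 0.212 over the 18 alternatives, and was 0.0595 without the 3 libraries that stood apart. Leaving out 1 library ended the call for Day 5 LIS1+/+ replicate 1 or 2, Day 5 LIS1+/- replicate 2 or 3, Day 12 LIS1+/+ replicate 2 or 3, and Day 12 LIS1+/- replicate 3, where the value was lowest (1.23, adjusted p = 0.212). Without the 3 libraries that stood apart, SPRY1 passed in place of ETV4, at 1.43 (adjusted p = 0.00291) against 0.38 ± 0.45 with all libraries. From hESC to Day 5 the genotype difference moved by -1.35 ± 0.37 in ETV4 and -1.10 ± 0.39 in SPRY4, and 0 of 9 members passed (adjusted p = 0.103 and 0.239), beside 0.573% of all genes. With no filter on low counts both passed (-1.37 and -1.13, adjusted p = 0.00953 and 0.0481). These 2 were the members with an unadjusted p under 0.05, and DESeq2 called 0. Between hESC and Day 12 also 0 of 9 passed (0.377% of all genes). FGFR1 (0.66 ± 0.27) and FGFR3 (-0.75 ± 0.30) had an unadjusted p under 0.05, and DESeq2 called 0. Without the 3 libraries that stood apart FGFR1 passed (0.94, adjusted p = 0.0256). The 3 differences share libraries and are not independent of each other.

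Beyond the 10 genes, 78 further genes of the pathway were grouped into 6 lists, all 78 were in the tables and 57 passed the filter. The lists were written with earlier results of these data known, so shares called among them are given as descriptions. Over hESC to Day 12, 24 of the 57 rose and 13 fell in LIS1+/+, and 22 rose and 17 fell in LIS1+/-. This is 64.9% and 68.4% of them, beside 53.1% and 52.1% of all genes. The median log2 change of the 57 was 0.45 against 0.09 over all genes in LIS1+/+, and 0.12 against 0.04 in LIS1+/-.

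Of the 16 other FGF ligands only FGF18 and FGF19 passed the filter. FGF18, a ligand of the FGF8 subfamily, was at 7.14 ± 2.28 CPM in hESC LIS1+/+, 12.0 ± 3.54 CPM at Day 5 and 47.4 ± 17.1 CPM at Day 12. In LIS1+/- it was at 5.95 ± 4.22, 6.38 ± 2.01 and 81.7 ± 11.9 CPM. From Day 5 to Day 12 it rose by log2 1.97 ± 0.32 in LIS1+/+ (adjusted p = 8.23e-05) and 3.68 ± 0.35 in LIS1+/- (adjusted p = 4.65e-08), and the difference of these rises did not pass (1.71 ± 0.48, adjusted p = 0.0918). FGF19, which acts at a distance with the co-receptor KLB and is also made in the embryonic brain, went the other way. It was at 12.2 ± 1.04, 5.82 ± 1.21 and 4.78 ± 3.31 CPM in LIS1+/+ and at 8.87 ± 0.690, 1.23 ± 0.432 and 2.17 ± 0.848 CPM in LIS1+/-. At Day 5 FGF19 was lower in LIS1+/- by log2 -2.19 ± 0.53 (adjusted p = 0.0277), with all 3 libraries below all 3 of LIS1+/+. This rests on 11 pooled counts in LIS1+/- and 76 in LIS1+/+. Depth at Day 5 was also lower in LIS1+/-, at 2586073 to 3365342 counts over genes against 4216835 to 4501489. Alternatives were not followed for this gene. FGF19 was the only 1 of the 57 genes that passed between genotypes at Day 5, beside 1.95% of all genes. FGF18 was also lower in all 3 LIS1+/- libraries at Day 5 (log2 -0.92 ± 0.37), which did not pass (adjusted p = 0.294).

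FGFR4, a receptor for FGF19 in liver, fell from 34.2 ± 13.9 CPM in hESC LIS1+/+ to 13.8 ± 6.41 CPM at Day 5 (log2 -1.30 ± 0.44, adjusted p = 0.0215), and by -1.52 ± 0.45 in LIS1+/- (adjusted p = 0.00905). The FGF homologous factor FGF13, which stays inside the cell, was lower in LIS1+/- at Day 12, at 71.2 ± 1.18 against 123 ± 23.5 CPM (log2 -0.79 ± 0.18, adjusted p = 0.0176), the only 1 of the 57 (1.75%) called at that stage, beside 1.4% of all genes. In hESC FGF13 was also lower in LIS1+/-, at 98.6 ± 9.39 against 162 ± 14.9 CPM, and at Day 5 it was not (60.2 ± 12.7 against 54.9 ± 4.76 CPM). Neither of these differences was called. Of the 17 heparan sulphate genes, 9 rose and 1 fell over hESC to Day 12 in LIS1+/+, and 9 rose and 2 fell in LIS1+/-. This is 58.8% and 64.7% of them, beside 53.1% and 52.1% of all genes. SULF1, a sulphatase that trims heparan sulphate outside the cell, rose from 2.56 ± 2.65 to 156 ± 14.2 CPM by Day 5 in LIS1+/+ (log2 5.93 ± 0.35, adjusted p = 4.38e-13). GPC3 rose and GPC4 fell, both glypicans: GPC3 went from 392 ± 45.6 to 1679 ± 196 CPM and GPC4 from 556 ± 9.57 to 65.2 ± 12.8 CPM over the same step. The rise of GPC3 to Day 12 was smaller in LIS1+/-, a difference of log2 -1.12 ± 0.21 (adjusted p = 0.0116), and GPC3 was the only 1 of the 57 (1.75%) called in this comparison, beside 0.377% of all genes. In LIS1+/- GPC3 started higher in hESC, at 585 ± 50.5 against 392 ± 45.6 CPM. It was lower at Day 12, at 1319 ± 118 against 1915 ± 324 CPM. Neither of these GPC3 differences was called. Of the 18 tested adaptor and RAS-MAPK genes, 4 rose and 6 fell over hESC to Day 12 in LIS1+/+, and 2 rose and 5 fell in LIS1+/-. These shares, 55.6% and 38.9%, were near and below the 53.1% and 52.1% of all genes. PLCG1, a phospholipase bound by the active receptor, rose by 0.88 ± 0.16 in LIS1+/+ and 1.03 ± 0.16 in LIS1+/-, and the adaptor GRB2 fell by 0.80 ± 0.13 and 0.82 ± 0.13 on the log2 scale.

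The other feedback inhibitors and targets moved in both directions, as the 10 genes did. Over hESC to Day 12, 8 of the 16 tested rose and 4 fell in LIS1+/+, and 9 rose and 7 fell in LIS1+/-. This is 75% and 100% of them, beside 53.1% and 52.1% of all genes. IL17RD, a membrane inhibitor of FGF signalling, went from 22.4 ± 3.79 CPM in hESC and 34.5 ± 6.88 CPM at Day 5 to 105 ± 24.1 CPM at Day 12 in LIS1+/+. From Day 5 to Day 12 it rose by 1.61 ± 0.28 in LIS1+/+ and 1.67 ± 0.28 in LIS1+/- (adjusted p = 0.000225 and 0.000183). DUSP6, the phosphatase that switches off ERK, rose by 1.05 ± 0.25 and 1.42 ± 0.25 over that step (adjusted p = 0.00347 and 0.000297), and DUSP4 by 1.23 ± 0.34 and 1.00 ± 0.33 (adjusted p = 0.00872 and 0.0355). On the falling side, MYC went from 113 ± 17.8 CPM in hESC LIS1+/+ to 17.2 ± 1.84 CPM at Day 5, and DUSP5, a nuclear ERK phosphatase, from 24.3 ± 8.66 to 4.90 ± 1.82 CPM. Both falls passed in both genotypes (MYC log2 -2.71 ± 0.24 and -2.56 ± 0.24, DUSP5 -2.31 ± 0.39 and -3.71 ± 0.43). FLRT3, a membrane protein that promotes FGF signalling, rose from 0.381 ± 0.344 to 14.9 ± 3.29 CPM in LIS1+/+.

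**Figure D4:**
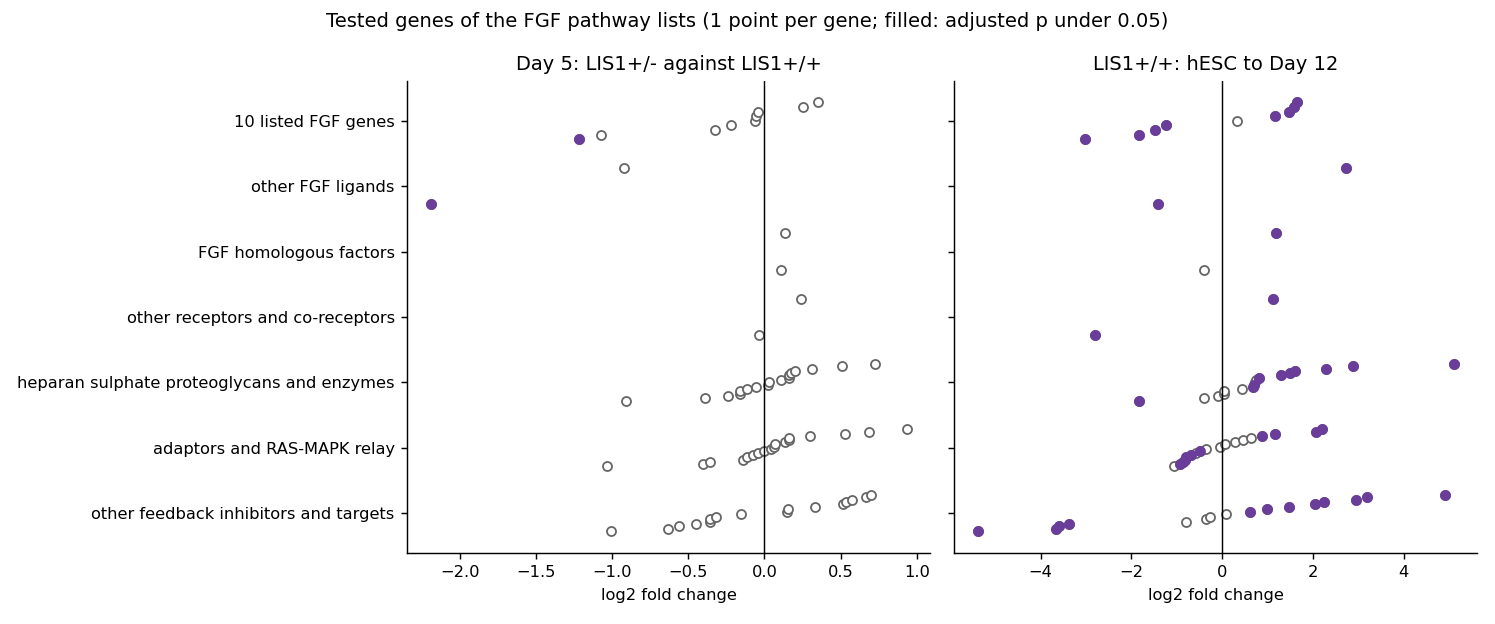
Log2 fold change (horizontal axes, of different range) of each tested gene of the 10 listed FGF genes and of the 6 further pathway lists, for LIS1+/- against LIS1+/+ at Day 5 (left) and for hESC to Day 12 in LIS1+/+ (right); filled points passed an adjusted p of 0.05. On the left only ETV4 and FGF19 are filled, and on the right filled points lie on both sides of 0 in every list but the FGF homologous factors.

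By likeness of log2 CPM over the 18 libraries, among 10409 tested genes with a mean of at least 5 CPM, 3 nearest genes were taken for each member. FGF2 lay nearest to AASS (Pearson r 0.98), FRAS1 and CCDC6, and FGFR1 to NIFK (0.93), WDR43 and HEATR1. FGFR2 lay nearest to ARMCX2 (0.87), and FGFR3 to POMC (0.93). SPRY1 lay nearest to DNER (0.93), MXRA5 and FAM107B, and SPRY2 to FAM107B (0.93), FN1 and IL17RD. FAM107B was thus among the 3 nearest of both. SPRY4 lay nearest to ITPR3 (0.96), PLP2 and DSP, ETV4 to MICB (0.95), PIPOX and CD63, and ETV5 to SPAG9 (0.91). These values are descriptions of a shared course over libraries that fall into 3 stages.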

How the data were processed

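RNA of 18 libraries, 3 for each of 3 stages and 2 genotypes, was sequenced by bulk MARS-seq, per the labels' protocols. The deposited values are whole-number counts per gene and library, not normalized. The submitters' processing notes name cutadapt, STAR and DESeq2 and the builds GRCh37 and hg38. Collapsing of molecular identifiers and use of strand are not given in the sources used here. Each file's 5 closing rows, which name no gene, held 49.2 to 70.6% of counts and were left out, which left 1425098 to 4501489 counts per library.

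Counts of all 26485 genes were filtered by filterByExpr over the 6 groups (12215 genes), scaled by TMM and fitted together with edgeR 4.0.16 (robust quasi-likelihood test, 12 residual degrees of freedom, R 4.3.3). P-values were two-sided and adjusted by Benjamini-Hochberg over all tested genes within each of 12 comparisons, with a threshold of 0.05. Comparisons that use the same libraries are not independent. FGF8 was compared by pooled counts with exact 95% intervals that cover counting error only. CPM are counts divided by the effective library size (total over genes times the TMM factor). Alternatives were DESeq2 1.42.0, its size factors, no filter on low counts, only the libraries compared, a replicate block, and leaving out libraries. The steps were tested on simulated data. Positions are from GENCODE release 29 (GRCh38) and promoters from RefSeq (GRCh38.p14), which may differ from the authors' build.

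The 10 genes and all lists were chosen with earlier results of these data known. All 10 are described, though values are not printed for each of them in every comparison. From the pathway lists, up to 3 genes in each direction, list and comparison with the smallest adjusted p could be named, with PAFAH1B1, genes that overlap a member, and the 3 nearest genes by correlation. FGF18 at Day 5 was named after its value was seen.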

Additional observations from a re-analysis of the deposited data

Results flagged for a closer look

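The genotype difference of ETV4 at Day 12 minus that at Day 5 was log2 1.62 ± 0.39 (adjusted p = 0.0371, edgeR quasi-likelihood test). It was picked out because the effect of genotype differed between these stages by a direct test. ETV4 was lower in all 3 LIS1+/- libraries at Day 5, while at Day 12 the genotypes overlapped.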

How the results depend on the processing

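No called member changed sign under any alternative run. Of 1455 member values under alternatives, 58 changed sign, none called in either setting. The number of members called between genotypes at Day 5 was 1, and 2 (SPRY4 and ETV4) with no filter on low counts, with DESeq2, with the replicate block and without the 3 libraries that stood apart, and 0 to 2 with 1 library left out. At Day 12 it was 0, and 2 without those 3 libraries, and 0 to 1 with 1 left out. From Day 5 to Day 12 in LIS1+/- it was 3, and 5 with no filter, and 2 to 4 with 1 left out. For the change of the genotype difference it was 0 from hESC to Day 5 and 2 with no filter. From Day 5 to Day 12 it was 1, and 0 with only the libraries compared, and 0 to 1 with 1 left out. From hESC to Day 12 it was 0, and 1 without the 3 libraries, and 0 to 1 with 1 left out. The cause of these shifts was not tested. In hESC between genotypes it was 0 throughout, and from hESC to Day 12 it was 7 or 8.

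Replicate numbers did not pair the libraries. Deviations of same-numbered libraries correlated at -0.23 to 0.10, every library matched its own number best in 2 of 9 comparisons, and the replicate block moved no other count of members beyond 1.5 times.

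Counts over all genes moved more. With no filter, DESeq2 and only the libraries compared, the hESC genotype count of 60 became 206, 131 and 153, and the count of 70 for its change to Day 5 became 281, 140 and 117. The Day 5 count of 238 became 412 with no filter. The Day 12 count of 171 became 483, 294 and 41 in that order, and 381 without the 3 libraries. The count of 129 for the change from Day 5 to Day 12 became 363, 205 and 77. The count of 46 for the change from hESC to Day 12 became 172 with no filter, 120 with DESeq2 and 158 without the 3 libraries. With 1 library left out these counts ranged from 21 to 41 (hESC), 125 to 186 (Day 5), 57 to 332 (Day 12), 31 to 79, 59 to 170 and 11 to 138 (the changes from hESC to Day 5, Day 5 to Day 12 and hESC to Day 12). The count of 2020 from Day 5 to Day 12 in LIS1+/- ranged from 1317 to 1921. FGF8 rests on 3 to 47 pooled counts a group, and with 1 library left out its log2 ratio between genotypes ran from -1.13 to 0.50 in hESC, from -1.89 to -1.29 at Day 5 and from -0.46 to 1.75 at Day 12.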
